A study of Mus musculus with 4 samples.

Results

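The genes described were 10 non-coding hosts of small nucleolar RNAs (snoRNAs): Gas5, Snhg1, Snhg3, Snhg4, Snhg5, Snhg6, Snhg8, Snhg12, Snhg15 and Zfas1. They were taken by symbol from the 55450 genes of the authors' deposited table, and all 10 were found, each in 1 row. GENCODE M21 names 9 of them. Snhg4 carries the clone-based name AC121821.1 there, and was found through the RefSeq transcript that GENCODE links to it. The rule names genes by what they encode and uses no measured value, but the set was proposed with earlier results of these data known.

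The cells were mouse Th17 cells, CD4 helper T cells that make IL-17, cultured from mice aged 8 to 12 weeks. The mice are described as wild-type, while the labels give a Cas9 transgene as the genotype of every sample, controls included. These descriptions conflict, and which holds could not be checked. In the 2 sgAdarb1 cultures the retroviral vector PSIN carried a guide against Adarb1, the gene of the RNA-editing enzyme ADAR2, and the 2 control cultures received the PSIN empty vector, which has no guide. Naive CD4 T cells were activated with 0.25 µg/mL anti-CD3ε and 1 µg/mL anti-CD28, transduced after 24 h, and kept for 72 h with TGF-β at 0.3 ng/mL and IL-6 at 20 ng/mL. Each of 2 donor mice gave 1 culture to each group, so n was 2 per group. The titles were used to name the groups of the 4 samples, and the treatment tag goes against the title in 2 of them. The fold changes, SEs and p-values are from the authors' own comparison, so the titles did not enter them. Which group that comparison gave those 2 samples could not be checked.

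After splicing, most mammalian snoRNAs are trimmed out of the excised introns of a host transcript by exonucleases. C/D box snoRNAs guide ribose methylation of ribosomal RNA, and H/ACA box snoRNAs guide the change of uridine to pseudouridine. The spliced host RNA left behind has little coding potential, often begins with a pyrimidine tract like that of ribosomal protein mRNAs, and tends to be broken down by nonsense-mediated decay when it is translated. Gas5 was named for its accumulation in growth-arrested cells, has been linked to growth arrest of T cells, and its RNA can bind the glucocorticoid receptor.

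The snoRNAs inside these hosts are shown first, since what the deposited table gives for them bears on what a host value holds. The annotation places 35 snoRNA genes at 33 separate places inside the 10 hosts on the host's strand. The sequences below are those of GENCODE M21 transcripts on GRCm38. Capitals mark the boxes that were searched: in C/D snoRNAs TGATGA within the first 20 bases and CTGA within the last 20, and in H/ACA snoRNAs ACA within the last 8. Searches were on the RNA strand only, and the letters for the boxes do not overlap.
Snord87 in Snhg6 (chr1:9942463-9942549, minus strand): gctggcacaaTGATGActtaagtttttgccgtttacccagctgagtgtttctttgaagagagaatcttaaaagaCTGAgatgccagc
Snord47 in Gas5 (chr1:161038082-161038158, plus strand): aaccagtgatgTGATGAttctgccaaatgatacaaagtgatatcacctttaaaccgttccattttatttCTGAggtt
Snord50a in Snhg5 (chr9:88521529-88521600, minus strand): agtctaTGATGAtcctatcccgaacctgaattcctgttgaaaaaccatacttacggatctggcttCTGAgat
Snord12 in Zfas1 (chr2:167065276-167065365, plus strand): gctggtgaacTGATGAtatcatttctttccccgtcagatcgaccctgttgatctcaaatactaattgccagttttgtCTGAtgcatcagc
Snora24 in Snhg8 (chr3:123507937-123508066, minus strand): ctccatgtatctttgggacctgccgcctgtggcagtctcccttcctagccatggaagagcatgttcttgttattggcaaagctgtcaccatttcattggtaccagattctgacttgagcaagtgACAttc

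Both C/D boxes were found in 20 of the 35 hosted snoRNAs (57.1%), an ACA near the end without both C/D boxes in 8, and neither in 7. Among all 1558 annotated snoRNA and scaRNA genes, a class that includes the related small RNAs of Cajal bodies, 20.2% held both C/D boxes and 46.7% the ACA alone. By these letters Gas5 (8 of its 10 annotated snoRNA genes), Snhg1 (5 of 8), Snhg5 (2 of 2), Snhg6 (1 of 1) and Zfas1 (3 of 3) were hosts of C/D snoRNAs. Snhg3 (2 of 2), Snhg8 (1 of 1) and Snhg15 (1 of 1) held the ACA, as did 1 of 2 in Snhg4. Snhg12 was mixed, with 3 genes of the ACA kind, 1 of the C/D kind and 1 with neither. These counts are of annotated genes: Snora16a in Snhg12 and Snord80 in Gas5 are each annotated as 2 genes at overlapping positions. A missing box says only that these exact letters are not in these windows.

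Of the 35 hosted snoRNA genes, 34 were listed at 0 in the authors' deposited table. The mean normalized count used here is the authors' mean over the 4 libraries of counts divided by size factors. The exception was Snord87, shown above, with a mean of 6.60 and a log2 difference of 0.16 ± 1.62 (SE), both from the authors' deposited table. Snord87 lies in an intron of Snhg6, outside every annotated exon of its host. Of the hosted snoRNAs, 32 lie wholly inside an annotated exon of the host, through transcripts that keep the intron or were annotated over it, and all 32 were at 0. Snora73b, which lies in an intron of Snhg3, and Snora73a, which lies partly in an exon, were also at 0. Both lie within the bounds of Gm17300, a gene on the other strand. Positions given here and below count only exons on the snoRNA's own strand.

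Over the whole table, all 134 annotated snoRNA genes that lie wholly in an exon of a longer gene on their strand were at 0 in the authors' deposited table, against 338 of 538 (62.8%) that lie in introns alone, 12 of 25 (48.0%) partly in an exon and 733 of 861 (85.1%) outside any host. The submitters' processing notes name featureCounts, which by default leaves out reads that overlap more than 1 gene, but its settings are not stated there. Its part in these zeros was not tested. A row at 0 is therefore given as listed at 0, not as a snoRNA that the cells lacked.

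Exon bases shared with other genes differed among the hosts. Bases of same-strand snoRNA or other small RNA genes made up between 7.37% (Snhg4) and 20.9% (Snhg1) of the exon bases of 9 hosts, and none of those of Snhg6. Snhg3 stood apart, with 86.3% of its 986 exon bases annotated in other genes as well. Rcc1, which encodes the exchange factor of the Ran GTPase, begins beside Snhg3 on the same strand and covers 135 of them, and Gm17300, a non-coding gene on the other strand, covers 705. The other hosts shared between 8.32% (Snhg5) and 20.9% (Snhg1) of exon bases with any gene. Transcripts of the retained-intron type were annotated in 6 of the 10 hosts, up to 20 of 25 in Gas5.

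**Figure D1:**
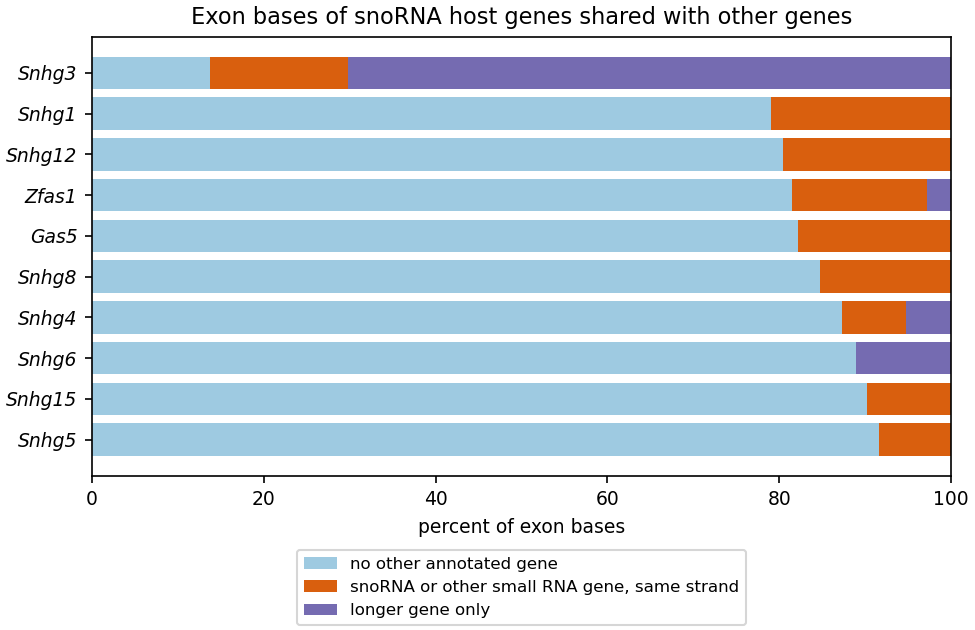
Percent of the annotated exon bases of each host (horizontal axis) that belong to no other gene, to a snoRNA or other small RNA gene on the same strand, or to a longer gene only. Snhg3 shares 86.3% of its exon bases, and the other hosts between 8.32% and 20.9%.

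Th17 and CD4 T cell genes were present, which checks the labelled cell type. The Th17 markers Il17a, Il17f, Il23r, Ccr6 and Il21 and all 5 CD4 T cell markers had means of at least 611 in the authors' deposited table. Markers of B cells lay between 129 and 414, those of CD8 T and NK cells between 1.24 and 1357, and those of myeloid, mast and erythroid cells at 28.7 or less, with Hbb-bs at 0, in the authors' deposited table. These are means over all 4 libraries, and the share of the host RNA that came from other cells was not tested. The table's 4 columns of values per library have names that match none of the sample labels and were not used, so no level per culture or depth per library is given here.

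All hosts but Snhg3 were well expressed. Their mean normalized counts ran from 323 for Snhg4 to 3096 for Gas5 in the authors' deposited table. Gas5 alone made up 44.3% of the summed mean of the 10 hosts. Among 4554 long non-coding genes with any count it ranked 6 by mean, and 9 by mean per kilobase of annotated exon. The mean of Snhg3 in the authors' deposited table was 6.28.

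Compared per length, as mean normalized count per kilobase of annotated exon, Gas5 was the highest at 823, followed by Snhg6 at 509, Snhg8 at 389, Snhg15 at 281, Snhg1 at 277, Snhg5 at 234, Zfas1 at 217, Snhg12 at 169, Snhg4 at 69.2 and Snhg3 at 6.37. Without values per culture, the spread behind this order is unknown. Gas5 and Snhg6 stayed first and second, and Snhg12, Snhg4 and Snhg3 last, with the longest annotated transcript as the length or with only the exon bases that no other gene holds. The hosts between them changed places: Snhg15 ranked 3 by the longest transcript (566 per kilobase) and 5 by unshared exon bases (312 per kilobase). By unshared bases the level of Snhg3 was 46.5 per kilobase, over the 135 bases left.

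**Figure D2:**
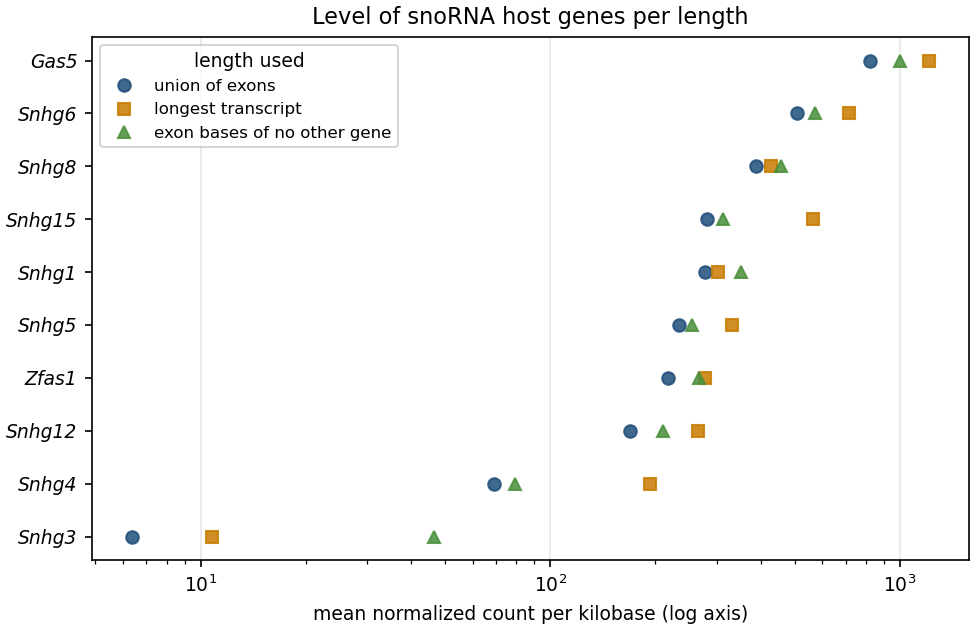
Mean normalized count per kilobase (log axis) of each host, from the authors' means over 4 libraries divided by 3 lengths: the union of exons, the longest transcript, and the exon bases of no other gene. Gas5 is highest and Snhg3 lowest under each length.

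The comparison asked whether the amount of these host RNAs differed between the sgAdarb1 and the empty vector cultures of these donors. In bulk RNA, fewer cells of a type and less RNA per cell cannot be told apart. None of the 10 hosts passed the test, 4 with a positive and 6 with a negative estimate. Adjusted p below 0.05 (DESeq2, Benjamini-Hochberg) was reached by 0 of 10 hosts and by 0 of all 29383 genes with a fold change, a background of 0%, in the authors' deposited table. At an unadjusted p below 0.05 the counts were 0 of 10 hosts and 61 of 29383 genes (0.208%), so a set of this size would hold none at the background share either. A uniform spread of p-values would put about 1469 of the 29383 genes below 0.05. The SD of the deposited Wald statistic was 0.585 among the 14547 genes whose base mean reached 10, where SEs that match the spread of the estimates under no difference would give about 1. The deposited SEs were thus wide for the spread of the estimates, and the intervals, p-values and detectable differences given here rest on them. Fold changes are given as log2 of sgAdarb1 over empty vector, with the authors' SE. The table does not name its numerator, and the sign follows the order of the design text.

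The intervals of 9 hosts were narrower than that of Snhg3. With a 95% interval taken as the estimate plus or minus the normal quantile times the SE, all 10 intervals held 0, and 9 of them excluded a log2 difference of 1 in either direction. The exception was Snhg3. The adjusted p of every host was 1.00 in the authors' deposited table, and the smallest unadjusted p was 0.189, for Snhg6. An interval around 0 bounds the size of a difference and does not show that there was none.

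**Figure D3:**
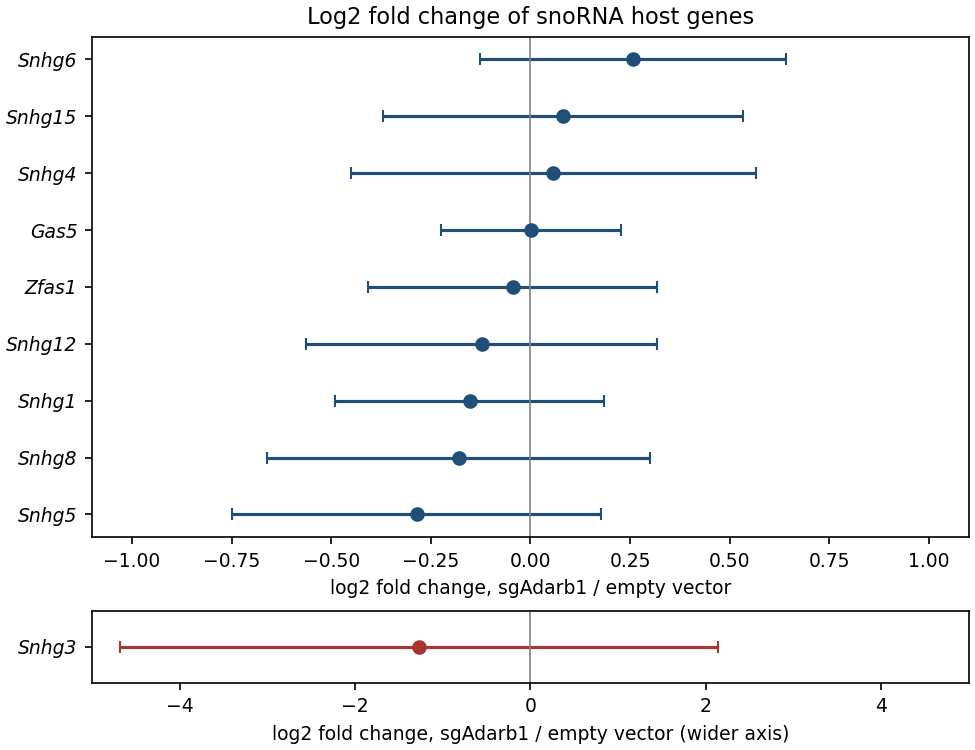
Log2 fold change, sgAdarb1 over empty vector, of each host with its 95% interval (bars) from the SE in the authors' deposited table; Snhg3 has a wider axis of its own. Estimates of the upper 9 hosts lie between -0.29 and 0.26, and every interval holds 0.

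Among the hosts of C/D snoRNAs, Gas5 (chromosome 1, 161034422 to 161038539 on mm10, plus strand) gave the most precise value. Its log2 difference was 0.0017 ± 0.12 in the authors' deposited table, with an interval from -0.22 to 0.23, or from 0.856-fold to 1.17-fold. Of the 14547 genes whose mean was 10 or more, Gas5 was the gene in the middle of the order by fold change. Snhg1 (chromosome 19, 8723475 to 8726443, plus strand), which holds the most snoRNAs with both C/D boxes after Gas5, had a mean of 823 and lay at -0.15 ± 0.17 in the authors' deposited table (interval -0.49 to 0.18). Zfas1 (chromosome 2, 167062934 to 167065862, plus strand), named as an antisense neighbour of Znfx1, had a mean of 637 and lay at -0.04 ± 0.18 in the authors' deposited table (interval -0.41 to 0.32).

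The lowest and the highest estimate among the well-expressed hosts both belonged to hosts of C/D snoRNAs. Snhg5 (chromosome 9, 88521050 to 88522929, minus strand), host of the pair Snord50a and Snord50b, had a mean of 405 and lay at -0.29 ± 0.24 in the authors' deposited table (interval -0.75 to 0.18, unadjusted p = 0.228). Snhg6 (chromosome 1, 9941959 to 9944118, minus strand), host of Snord87, had a mean of 583 and lay at 0.26 ± 0.20 in the authors' deposited table (interval -0.13 to 0.64). Their intervals overlapped. Among those 14547 genes, 441 had a larger absolute Wald statistic than Snhg6 and 621 a larger one than Snhg5.

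Hosts of H/ACA snoRNAs lay on both sides of 0. Snhg8 (chromosome 3, 123507552 to 123508404, minus strand), host of Snora24, had a mean of 332 and lay at -0.18 ± 0.25 in the authors' deposited table (interval -0.66 to 0.30). Snhg15 (chromosome 11, 6525591 to 6528760, minus strand), host of Snora9, had a mean of 382 and lay at 0.08 ± 0.23 in the authors' deposited table (interval -0.37 to 0.53). Snhg4 (chromosome 18, 35553371 to 35558316, plus strand), host of Snora74a, lay at 0.06 ± 0.26 in the authors' deposited table (interval -0.45 to 0.57). Snhg12 (chromosome 4, 132308623 to 132311024, plus strand), the mixed host, had a mean of 406 and lay at -0.12 ± 0.22 in the authors' deposited table (interval -0.56 to 0.32).

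Snhg3 (chromosome 4, 132348014 to 132353686, minus strand), host of Snora73a and Snora73b, was measured with little precision. Its value was -1.27 ± 1.74 in the authors' deposited table, with an interval from -4.69 to 2.14. That estimate is larger than those of the other hosts, and so is its SE. Rcc1, which begins 81 bases away on the same strand, had a mean of 1007 and lay at -0.04 ± 0.15 in the authors' deposited table. How reads of the shared bases were divided between Snhg3, Rcc1 and Gm17300 was not tested.

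The SE of each host lay close to that of other genes of its level, between 0.994 and 1.05 times the median SE of genes whose mean was within 1.5 times its own. The SEs of the 9 hosts above a mean of 10 ran from 0.12 (Gas5) to 0.26 (Snhg4) in the authors' deposited table. An unadjusted two-sided p of 0.05 would have needed a log2 difference of 0.23 in Gas5, of 0.34 in Snhg1 and of 0.51 in Snhg4. Smaller differences were not detectable one gene at a time, and the threshold on the adjusted p needs more.

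**Figure D4:**
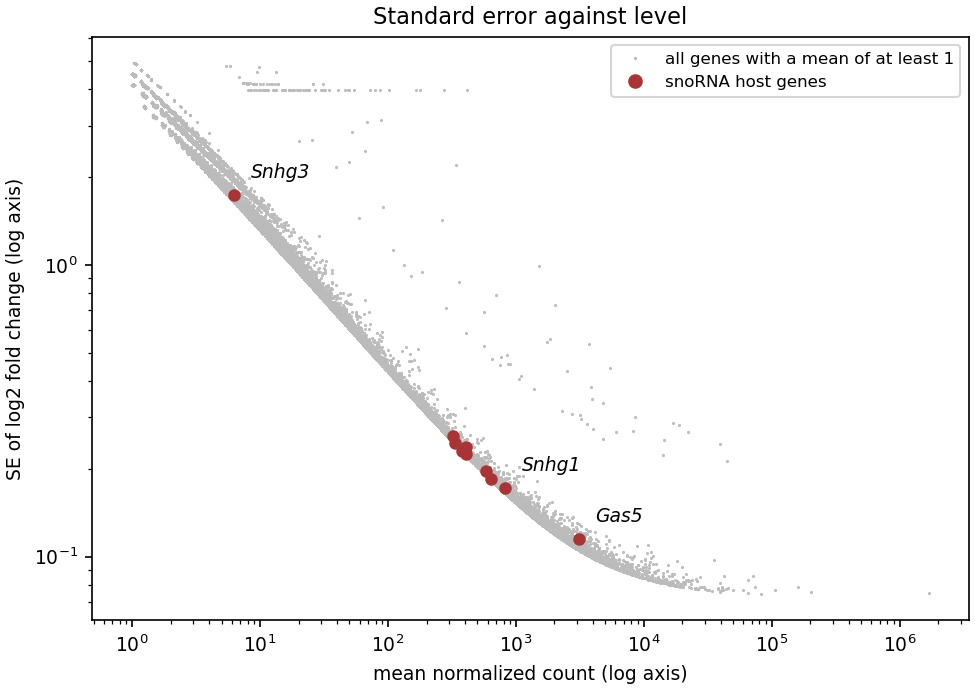
SE of the log2 fold change against the mean normalized count (both log axes) for genes with a mean of at least 1 (grey) and the 10 hosts (red), from the authors' deposited table. The hosts lie on the band of the other genes, with Snhg3 at a mean of 6.28 and an SE of 1.74.

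As a group the hosts were centred near 0. The median log2 fold change of the 10 was -0.08, and of the 9 with a mean of at least 10, 4 were positive and 5 negative with a median of -0.04. Over all 14547 genes with that mean, 7349 were positive and 7198 negative, with a median of 0.0017. Over the 1051 long non-coding genes with that mean, 427 were positive and 624 negative, with a median of -0.10. These are counts and medians of the authors' fold changes, described without a test.

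Some hosts begin beside a protein-coding gene on the other strand, and those genes did not pass the test either. By its GENCODE start, Gas5 begins inside Zbtb37, a zinc finger gene, 427 bases from the start of Zbtb37. The RefSeq start of Gas5 at 161035166 lies outside Zbtb37. Zbtb37 was at a mean of 347 and -0.10 ± 0.24 in the authors' deposited table. Snhg1 begins 106 bases from Slc3a2, which encodes the heavy chain of amino acid transporters induced in activated T cells and was at a mean of 2309 and 0.03 ± 0.11 in the authors' deposited table. Zfas1 begins inside Znfx1, 81 bases from its start; Znfx1, a helicase-like gene with a part in antiviral defence, was at a mean of 2962 and 0.06 ± 0.11 in the authors' deposited table. Zfas1 and Znfx1 share 82 exon bases on opposite strands, and whether the counting used strand is not stated, so reads of those bases cannot be told apart. Mcmdc2, a meiosis gene, overlaps 127 exon bases of Snhg6 on the other strand and was at a mean of 23.3 and a log2 value of 0.35 ± 0.91 in the authors' deposited table. Gm28285 overlaps 246 exon bases of Snhg4 on the same strand and was at a mean of 21.1 and 0.07 ± 0.95 in the authors' deposited table.

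The starts of the hosts were searched for pyrimidine tracts, the feature that ties many host RNAs to growth-dependent translation. RefSeq windows on GRCm38.p6 were used for 9 starts of 8 hosts, from 10 bases before to 20 bases from the annotated start. No window of Snhg4 or Snhg6 was used. Starts on the chromosome of Snhg4 were left out for the hosts but kept in the sets they are set beside. Capitals mark the longest unbroken run of C or T that holds the start or lies within 5 bases of it. Shown are the 4 starts with a run of at least 6, and that of Snhg15, which has none.
Snhg12 (chr4:132308668-132308697, plus strand): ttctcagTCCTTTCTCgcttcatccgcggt
Snhg1 (chr19:8723477-8723506, plus strand): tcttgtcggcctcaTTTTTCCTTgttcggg
Snhg8 (chr3:123508317-123508346, minus strand): gttcagaagTCTCTTTggctgcgatccgcc
Gas5 (chr1:161035156-161035185, plus strand): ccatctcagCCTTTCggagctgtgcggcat
Snhg15 (chr11:6528741-6528770, minus strand): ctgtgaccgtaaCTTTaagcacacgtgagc
Such a run was present at 4 of the 9 host starts (44.4%), at 33 of 73 starts of ribosomal protein genes (45.2%), and at 6905 of all 32851 starts (21.02%). The second annotated start of Gas5, farther upstream, has a run of 3. Annotated starts can differ from the base where transcription begins: for Gas5 the RefSeq start shown is at 161035166 and the GENCODE start at 161034422. The 4 hosts with a run lay at -0.18 to 0.0017 in the authors' deposited table, inside the range of the others.

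Other snoRNA host genes were described beside these. Of 13 further non-coding hosts listed, 11 were matched and 6 had a mean of at least 10, 2 positive and 4 negative with a median of -0.03, none past the threshold. Snhg17 was at -0.13 ± 0.22, Epb41l4aos at -0.10 ± 0.30, Dancr at -0.04 ± 0.54 and Snhg20 at 0.09 ± 0.57 in the authors' deposited table. Snhg18 was listed at 0. Of 43 protein-coding hosts, most of them genes of ribosomal proteins, translation factors and nucleolar proteins, 23 were positive and 20 negative with a median of 0.01. The 4 with the highest means were Eef2, a translation elongation factor, at 0.11 ± 0.07, Hspa8, a constitutive chaperone, at -0.04 ± 0.08, Rpsa, a ribosomal protein, at 0.04 ± 0.08, and Tpt1, a growth-related protein, at 0.07 ± 0.08 in the authors' deposited table. An unadjusted p below 0.05 was found for 2 of the 43, beside 60 of the 14547 genes with that mean. The 2 were Ncl, which encodes nucleolin, at -0.21 ± 0.10, and Dkc1 at -0.25 ± 0.12 in the authors' deposited table. Neither passed after adjustment, and both are named at this point for their p-values, after these were seen.

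Hosts were also taken from the annotation alone, as every gene that wholly contains a snoRNA on its strand. Of 217 protein-coding hosts with a mean of at least 10, 99 were positive and 118 negative, with a median of -0.02. Of 27 hosts that are not protein-coding, 10 were positive and 17 negative, with a median of -0.04, and without the 10 described here 6 of 18 were positive and 12 negative, with the same median to 2 decimals.

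Genes that act on snoRNAs and on host RNAs were described by lists of the pathway's members, which were written with earlier results of these data known, so that their one-sided counts are no independent evidence of a direction. Of 18 genes of the C/D and H/ACA ribonucleoproteins and their assembly, 5 were positive and 13 negative, with a median of -0.06. Nop56 and Nop58, core proteins of C/D particles, lay at -0.12 ± 0.09 and -0.16 ± 0.10, Nolc1, a nucleolar chaperone, at -0.09 ± 0.11, and Dkc1, the pseudouridine synthase of H/ACA particles, at -0.25 ± 0.12 (unadjusted p = 0.0422) in the authors' deposited table. Of 15 genes of the RNA exosome and snoRNA trimming, 0 were positive and 15 negative, with a median of -0.07. Xrn2, a nuclear exonuclease, lay at -0.04 ± 0.10, Mtrex, the exosome's nuclear helicase, at -0.13 ± 0.11, Exosc10, a nuclear exosome nuclease, at -0.10 ± 0.12 and Xrn1, a cytoplasmic exonuclease, at -0.01 ± 0.13 in the authors' deposited table. Beside these counts stand the 7349 positive and 7198 negative genes of the whole table, and no gene of either list passed the threshold.

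Nonsense-mediated decay can break down spliced host RNAs that are translated. Its genes were positive in 2 and negative in 17 of 19, with a median of -0.06. Smg1, the kinase of the pathway, lay at -0.15 ± 0.09, Upf1, its helicase, at -0.06 ± 0.11, and the translation termination factors Etf1 and Gspt1 at -0.01 ± 0.09 and -0.03 ± 0.09 in the authors' deposited table. Of 18 genes listed for mTORC1 and for mRNAs with pyrimidine tracts, 8 were positive and 10 negative, with a median of -0.02. Larp1, which binds such tracts, lay at -0.07 ± 0.08, Larp4 at -0.04 ± 0.10, Rps6, a ribosomal protein phosphorylated downstream of mTORC1, at 0.03 ± 0.09, and Cnbp, a nucleic acid binding protein, at -0.03 ± 0.09 in the authors' deposited table. None of the genes of these 2 lists had an unadjusted p below 0.05.

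**Figure D5:**
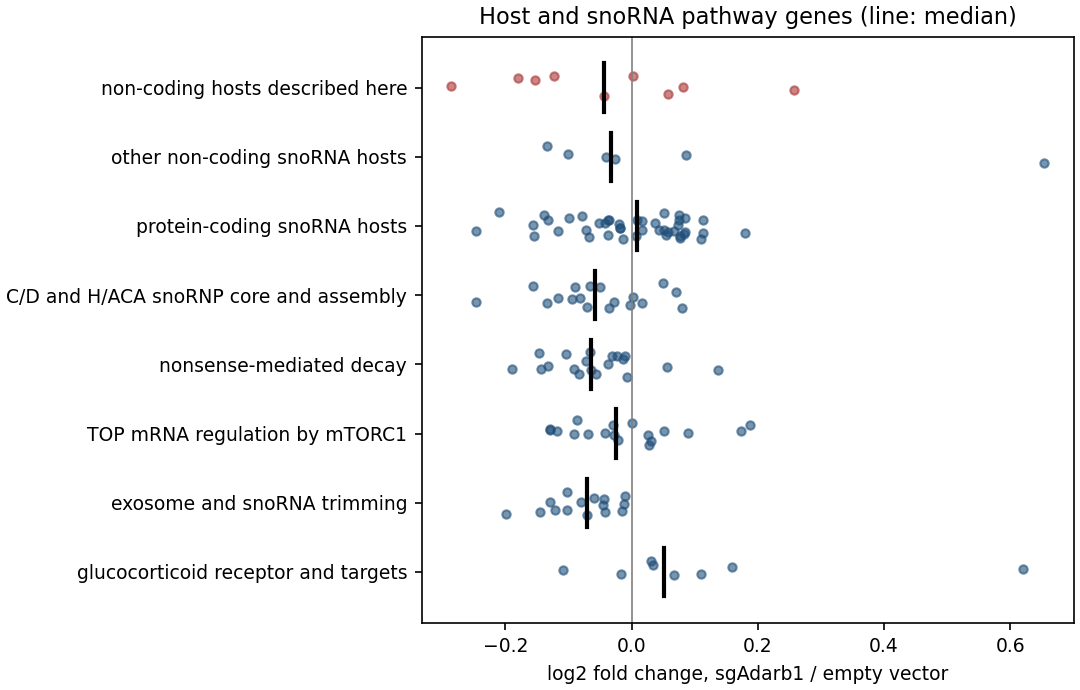
Log2 fold change, sgAdarb1 over empty vector, of each gene with a mean of at least 10 (points) in the described hosts (red) and in 7 lists of related genes (blue), with the median of each list as a black line. Medians lie between -0.07 and 0.05.

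The targeted gene itself, Adarb1 (chromosome 10, 77290726 to 77418270), had a mean of 2130 and lay at 0.11 ± 0.12 in the authors' deposited table. A cut by Cas9 can leave the amount of an mRNA as it was, so this value checks neither the groups nor the sign of the host values above.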

How the data were processed

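Per the submitters' processing notes, STAR 2.6.1a, featureCounts, DESeq2 1.18.1 and the mm10 build were used; the model formula, the annotation and the strand setting are not stated in those notes. Libraries were made from ribosome-depleted RNA with 8 PCR cycles, per the labels' protocols. Per the file headers the authors deposited, for 55450 genes, a mean signal (normalized count), a log2 fold change with its SE, a Wald score, and a p-value with its adjustment. A Benjamini-Hochberg adjustment over the 29383 genes with a fold change gave back the deposited adjusted values; the other 26067 had a mean of 0. The 4 columns per library matched no label and were not used. All 55450 identifiers matched GENCODE M21. From these, intervals, levels per kilobase, exon overlaps, list counts and medians were computed with Python 3.11.15, pandas 2.3.3 and scipy 1.17.1, and the functions were tested on simulated data. Lists were counted at a mean of at least 10.

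The members and lists were chosen with earlier results of these data known. Genes named were the 10 hosts, the snoRNAs inside them, genes that overlap a host or start within 1000 bases of it on the other strand, the 4 of highest mean in each list, and Adarb1. Whether samples within a group vary biologically or technically beyond coming from different donors is not stated. Alternatives covered the genes in the adjustment, centring, the length used for levels, the filter on low means, the definition of a host, and each host left out. Genes most alike to a host across samples were not sought, since that needs values per library. A further marker gene in the design is not reported here.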

Additional observations from a re-analysis of the deposited data

How the results depend on the processing

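No paired analysis was possible because no column per library could be tied to a sample; refits, other size factors and omission of a culture were not run either. Against 0 genes past the threshold, 3 passed when only genes with means from 10 upward were adjusted together, 2 from 50 upward, and 3 at an adjusted p below 0.1, since fewer genes were tested or the threshold was looser; none was a host, and the count of hosts was 0 under each. Centred on the median of genes whose mean was 50 or more, which is 0.0051, Gas5 turned from 0.0017 to -0.0035 without a call, and 9 hosts kept their sign. All 10 kept it when a trend on GC content and length was removed, an alternative chosen after the data were seen. The median over the hosts stayed between -0.12 and -0.04 with each host left out in turn. The median of the other non-coding hosts turned to 0.09 without a filter on the mean and to 0.01 with the trend removed, and that of the protein-coding hosts to -0.0032 with the trend removed. With the trend removed, exosome genes were 2 positive and 13 negative, and decay genes 5 and 14. Levels per kilobase moved with the length used, and ranks are given above. Depth per library was not used here, so the deposited SE sets what was detectable.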

Other observations

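Gas5 RNA can act as a decoy for the glucocorticoid receptor, so genes of that receptor's response were listed as well. Of 8 such genes, 6 were positive and 2 negative, with a median of 0.05, and none had an unadjusted p below 0.05. Nr3c1, the receptor itself, lay at -0.02 ± 0.15, and its targets Fkbp5, Per1 and Dusp1 at 0.03 ± 0.13, 0.16 ± 0.17 and 0.07 ± 0.28 in the authors' deposited table. Receptor activity was not measured, and none of these values differed from 0 beyond its interval.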
